A study of Homo sapiens with 6 samples.

Results

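The genes described here are 10 members of the circadian clock, namely PER1, PER2 and PER3, CRY1 and CRY2, BHLHE40 and BHLHE41, NR1D1 and NR1D2, and DBP. They were taken by symbol as a set of known clock genes, with earlier results of these data known, and all 10 had a row among the 16305 distinct genes listed for every sample. RNA-seq was performed in Huh7-R cells (labelled Huh7SR), a sorafenib-resistant derivative of the human hepatocellular carcinoma cell line Huh7 that was selected as a pool by long exposure to sorafenib, a multikinase inhibitor. Resistant cells were kept in sorafenib and taken off it several days before an experiment. One group of 3 samples received DMSO, the vehicle, and the other group of 3 received fostamatinib, a prodrug whose active metabolite inhibits the tyrosine kinase SYK. Treatment lasted 24 h, and the labels state a dose of 2 µM for both groups, the vehicle included. Only this single time point was sampled, no synchronization of the cells is described, and untreated or sorafenib-sensitive parental cells were not analysed here. The labels give triplicate treatment without saying whether the cultures were separate, so the p-values may measure technical spread alone. The comparison addressed which transcripts differ between resistant cells exposed to fostamatinib and those exposed to vehicle.

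The deposited values are log2 CPM (the log2 of the reads of a gene per 1000000 reads in the library), and whole read counts were recovered from them for every gene. The DMSO libraries held 13640071 to 15272737 reads on the listed genes, and the fostamatinib libraries 13303451 to 14277756. All 10 hepatocyte markers examined were detected and were called higher after fostamatinib, at an adjusted p-value under 0.05 in limma. Of all genes, 23.3% were called higher. The hepatocyte markers summed to 5106 to 5442 CPM under DMSO and 6930 to 7334 CPM under fostamatinib. Of 5 leukocyte markers only CD14 was tested, with 2 to 7 reads in a sample. Of 4 endothelial markers only PECAM1 was tested, at 6.13 to 6.96 CPM under DMSO and 8.76 to 9.93 CPM under fostamatinib. Of 5 fibroblast or stellate markers 4 were tested, with summed levels of 296.3 to 304.9 CPM and 306.6 to 309.9 CPM, in which a fall of LUM by 0.40 on the log2 scale stood against rises of COL1A2 by 0.37 and PDGFRB by 0.95. The 5 proliferation markers summed to 1513 to 1565 CPM and 1525 to 1582 CPM, but 4 of them were called, where 47.8% of all genes were. CCNB1 and TOP2A were higher by 0.38 and 0.10, with overlapping groups for TOP2A. CDK1 and PCNA were lower, at log2 differences of -0.19 and -1.18. The part that any of these marker differences has in the clock gene values was not tested.

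The mammalian clock is a transcriptional feedback loop that runs in nearly every cell, hepatocytes included. The activators CLOCK and BMAL1 (listed as ARNTL) bind E-box elements and drive the PER and CRY genes, whose protein products return to the nucleus and repress that activity. BHLHE40 and BHLHE41 (DEC1 and DEC2) compete for E-boxes as further repressors, NR1D1 and NR1D2 (REV-ERBα and REV-ERBβ) repress ARNTL in a second loop opposed by the ROR receptors, and DBP, an activator, carries the rhythm to genes with D-box elements. In the liver this system times glucose, lipid and bile acid metabolism. PER1 and PER2 are also known to respond acutely to glucocorticoid and cAMP signals, and BHLHE40 to many growth and stress signals.

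The promoters of PER1 and PER2, paralogs that moved in opposite directions, and of BHLHE40 and BHLHE41, which moved together and by the most, are shown to place the elements through which the clock reads its own state. The sequences are the RefSeq promoters of these genes (from a table on GRCh38.p14), each matched exactly once to GRCh37, the build of the deposited files, and all 10 members were matched in this way. Each run covers 250 bases before the transcription start and 10 bases after it, written 5′ to 3′ on the gene's strand, and capitals mark every match to a searched motif. The PER1 run lies at chr17:8055713-8055972, minus strand, and the PER2 run at chr2:239197242-239197501, minus strand, both inside the wider annotated span of their gene. The BHLHE40 run lies at chr3:5020872-5021131, plus strand, and the BHLHE41 run at chr12:26277961-26278220, minus strand.
PER1: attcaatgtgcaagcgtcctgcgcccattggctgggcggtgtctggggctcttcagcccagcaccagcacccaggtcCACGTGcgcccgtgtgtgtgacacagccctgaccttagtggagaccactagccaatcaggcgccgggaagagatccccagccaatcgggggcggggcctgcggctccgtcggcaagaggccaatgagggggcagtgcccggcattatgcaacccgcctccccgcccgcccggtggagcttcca
PER2: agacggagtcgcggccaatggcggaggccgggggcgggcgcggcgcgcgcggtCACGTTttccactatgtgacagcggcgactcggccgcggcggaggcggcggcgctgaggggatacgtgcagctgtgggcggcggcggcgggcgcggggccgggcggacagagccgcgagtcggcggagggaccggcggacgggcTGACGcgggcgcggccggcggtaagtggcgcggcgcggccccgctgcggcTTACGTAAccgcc
BHLHE40: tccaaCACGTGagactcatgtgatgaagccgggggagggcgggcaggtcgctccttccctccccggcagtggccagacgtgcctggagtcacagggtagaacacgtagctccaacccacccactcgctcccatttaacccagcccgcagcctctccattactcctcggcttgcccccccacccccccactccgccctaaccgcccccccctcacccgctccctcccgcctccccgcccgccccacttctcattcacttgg
BHLHE41: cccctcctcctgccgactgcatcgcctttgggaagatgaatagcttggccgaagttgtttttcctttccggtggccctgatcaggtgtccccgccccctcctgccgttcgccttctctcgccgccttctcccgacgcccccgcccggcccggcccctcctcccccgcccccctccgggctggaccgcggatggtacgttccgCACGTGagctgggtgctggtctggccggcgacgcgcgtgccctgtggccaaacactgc

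Motifs were searched on both strands in windows of 250 bases before to 50 bases after each start, and their shares were taken over 35116 RefSeq promoters of the same length. The E-box CACGTG was found in 3 members, 173 bases before the PER1 start, 245 bases before that of BHLHE40 and 48 bases before that of BHLHE41, and 7.26% of all promoters held it. The variant E′-box CACGTT was found in PER2, CRY1 and NR1D1, against 5.34% of all promoters. The D-box, TTATGTAA or TTACGTAA, was found in PER2, where it spans the start, and in PER3, against 1.01% of promoters. The cAMP response element core TGACG, which also lies inside every full element TGACGTCA, was found in PER2, CRY1, CRY2 and NR1D2, and 24.6% of promoters held it. In the windows searched, no member held the full element (1.85% of promoters) or the ROR element core TAGGTCA or TGGGTCA (5.69%), and the DBP window held none of the 6 motifs. Any other start sites of these genes were not searched. PER1 and BHLHE40 thus shared an E-box match while their transcripts moved in opposite directions, as described next. A match describes the letters only.

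**Figure D1:**
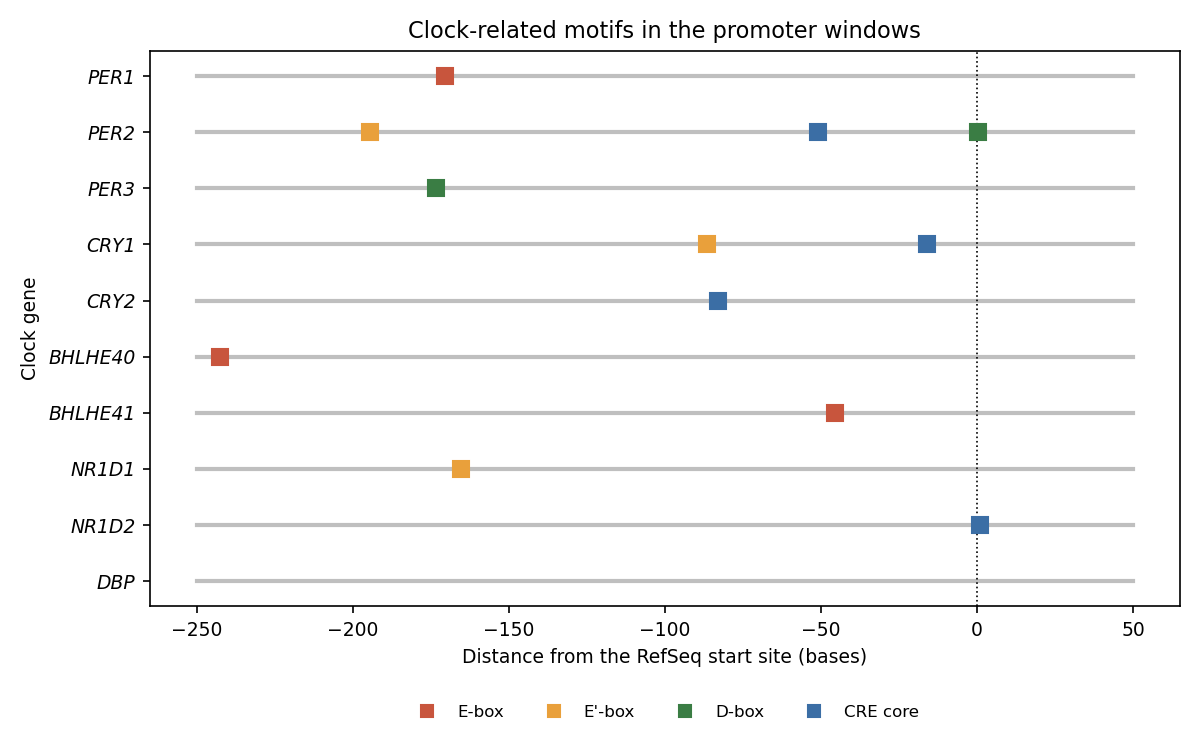
Motif matches in the promoter windows of the 10 clock genes, with distance from the transcription start in bases on the x axis, 1 row per gene and 1 marker type per motif. E-box matches appear for PER1, BHLHE40 and BHLHE41, D-box matches for PER2 and PER3, and no match for DBP.

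After 24 h of fostamatinib, 8 of the 10 clock genes differed from DMSO at an adjusted p-value under 0.05 in limma, where 47.8% of all 16305 genes did so. PER1, CRY2 and DBP rose (23.3% of all genes were called higher), and PER2, CRY1, BHLHE40, BHLHE41 and NR1D2 fell (24.5% were called lower). BHLHE40 and BHLHE41 fell by more than 2-fold, and of all genes 7.13% were called with a change of that size and 3.29% with a fall of that size. The median log2 fold change of the 10 members was -0.33, against 0.0015 over all genes, and the median size of the change without its sign was 0.58, against 0.27. In RNA from whole cultures, fewer cells expressing a gene and less RNA per cell cannot be told apart.

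**Figure D2:**
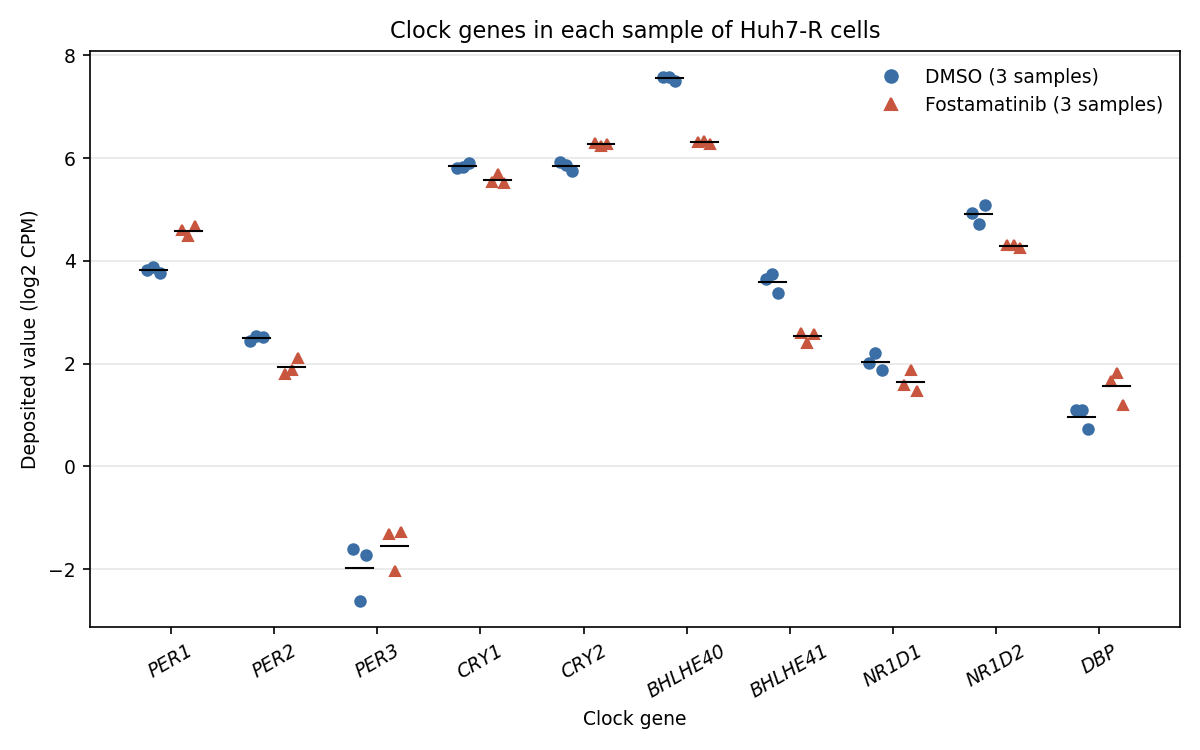
Log2 CPM of the 10 clock genes in each of the 6 samples, with 1 pair of columns per gene, points for samples and lines for the mean of 3 samples. The DMSO and fostamatinib points do not overlap for 8 genes and overlap for PER3 and NR1D1.

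The period genes encode the scaffold proteins of the repressor complex, and they did not move as a family. PER1 (ENSG00000179094; chr17:8043790-8059824, minus strand) was at 3.82, 3.88 and 3.77 log2 CPM in DMSO replicates 1 to 3 and at 4.60, 4.48 and 4.68 in fostamatinib replicates 1 to 3. Every fostamatinib sample lay above every DMSO sample, and the difference was many times the replicate SD of 0.055 and 0.10. PER1 rose by 0.76 on the log2 scale (SE 0.085, adjusted p = 2.23e-09), or 1.70-fold. PER2 (ENSG00000132326; chr2:239152685-239198743, minus strand) was at 2.45, 2.54 and 2.51 log2 CPM under DMSO and at 1.79, 1.88 and 2.12 under fostamatinib, again with no overlap but in the other direction. PER2 fell by 0.57 on the log2 scale (SE 0.16, adjusted p = 0.00326), to 67.4% of the DMSO level. PER3 (ENSG00000049246; chr1:7844351-7905237, plus strand) had 4, 2 and 4 reads under DMSO and 5, 3 and 5 under fostamatinib. It passed the filter on low reads only in the fostamatinib group, which the other 9 members passed in both groups. The PER3 groups overlapped, and its log2 difference of 0.44 had a 95% confidence interval from -0.79 to 1.68, so that a change was not detectable at this depth. Counting error alone gave PER3 an SE of 0.61 on the log2 scale, the size of its fitted SE.

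As PER1 was the most abundant of the 3, the family total followed it. Summed PER reads were 19.5 to 20.6 CPM under DMSO and 26.1 to 30.3 CPM under fostamatinib, a ratio of 1.41 between the group means. PER1 made up 70.7% ± 0.90 of the PER reads under DMSO and 85.4% ± 1.01 under fostamatinib (SD, n = 3). Within a sample, where library size cancels, the log2 ratio of PER1 to PER2 reads was 1.36, 1.34 and 1.26 under DMSO and 2.82, 2.60 and 2.56 under fostamatinib. The reads of PER1 thus went from 2.50 to 6.31 for each PER2 read, a shift of 1.34 on the log2 scale (SE 0.086). An exact two-sided permutation test over the 6 samples gave p = 0.1, the smallest p that 3 samples against 3 allow, and 0.17 after adjustment over the 5 pairs of paralogs examined.

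The cryptochromes, the repressors that bind CLOCK and BMAL1 directly, also parted. CRY1 (ENSG00000008405; chr12:107385142-107487327, minus strand) was at 5.81, 5.82 and 5.91 log2 CPM under DMSO and at 5.53, 5.69 and 5.51 under fostamatinib. CRY2 (ENSG00000121671; chr11:45868669-45904799, plus strand) was at 5.92, 5.87 and 5.74 under DMSO and at 6.29, 6.23 and 6.28 under fostamatinib. Neither gene had overlapping groups, CRY1 being lower and CRY2 higher in every fostamatinib sample. CRY1 fell by 0.27 on the log2 scale (SE 0.059, adjusted p = 0.000309), to 83.1% of the DMSO level, and CRY2 rose by 0.42 (SE 0.055, adjusted p = 5.92e-08), or 1.34-fold. Both changes were smaller than that of PER1. The 2 cryptochromes had equal read numbers on average under DMSO, with CRY1 at 50.0% ± 2.61 of their sum, and CRY1 was at 38.3% ± 2.06 under fostamatinib (SD, n = 3). The log2 ratio of CRY1 to CRY2 reads shifted by -0.69 (SE 0.11, exact permutation p = 0.1) without overlap of the groups. Their summed reads differed little in size, at 113.4 to 116.5 CPM under DMSO and 123.1 to 126.6 CPM under fostamatinib, with a ratio of 1.09 between the means.

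**Figure D3:**
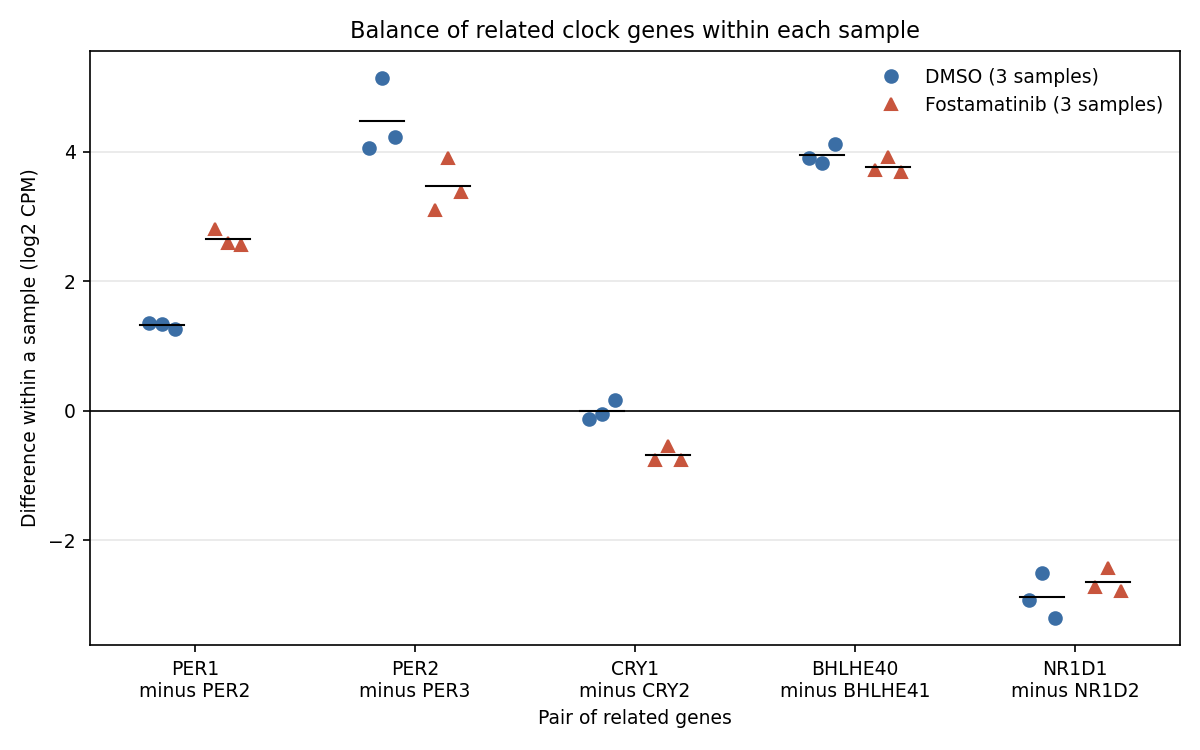
Log2 ratio of reads between clock gene paralogs within each sample, as the difference in log2 CPM, with points for the 6 samples and lines for the mean of 3. The PER1 to PER2 ratio lies at 1.26 to 1.36 under DMSO and 2.56 to 2.82 under fostamatinib, and the ratios of BHLHE40 to BHLHE41 and of NR1D1 to NR1D2 overlap between the groups.

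The basic helix-loop-helix repressors showed the largest differences among the members. BHLHE40 (ENSG00000134107; chr3:5021122-5027008, plus strand) had 2613, 2919 and 2683 reads under DMSO and 1096, 1144 and 1024 under fostamatinib, or 7.57, 7.58 and 7.50 against 6.32, 6.33 and 6.27 log2 CPM. The gap between the groups far exceeded the spread within either. BHLHE40 fell by 1.24 on the log2 scale (SE 0.045, adjusted p = 2.18e-22), to 42.3% of the DMSO level, and 2.58% of all genes had a log2 fold change at or below its value. BHLHE41 (ENSG00000123095; chr12:26272963-26277970, minus strand) had 173, 205 and 154 reads under DMSO and 83, 75 and 79 under fostamatinib. Its DMSO samples differed more among themselves, at 3.65, 3.75 and 3.38 log2 CPM, but all lay above the 2.60, 2.41 and 2.58 of the fostamatinib samples. BHLHE41 fell by 1.06 on the log2 scale (SE 0.13, adjusted p = 7.67e-09), to 47.8% of the DMSO level. In contrast to the PER and CRY pairs, the log2 ratio of BHLHE40 to BHLHE41 reads overlapped between the groups, at 3.83 to 4.12 under DMSO and 3.69 to 3.92 under fostamatinib (difference -0.18, SE 0.11, exact permutation p = 0.3). Their summed level went from 199.2 ± 7.35 to 84.8 ± 1.38 CPM (SD, n = 3).

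The REV-ERB receptors repress ARNTL and are bound by heme. NR1D2 (ENSG00000174738; chr3:23986777-24022108, plus strand) was at 4.93, 4.71 and 5.08 log2 CPM under DMSO and at 4.31, 4.31 and 4.25 under fostamatinib. Its DMSO samples were the more spread group, and all 3 lay above the fostamatinib samples. NR1D2 fell by 0.62 on the log2 scale (SE 0.083, adjusted p = 9.84e-08), to 65.2% of the DMSO level. NR1D1 (ENSG00000126368; chr17:38249046-38256842, minus strand) had 55, 70 and 54 reads under DMSO and 41, 52 and 36 under fostamatinib. Replicate 2 was the highest of its group on both sides, at 2.21 and 1.88 log2 CPM, and the groups overlapped. NR1D1 differed by -0.39 on the log2 scale (SE 0.18, adjusted p = 0.0849) and was not called. It was called in the fit without fostamatinib replicate 2, at -0.50 (adjusted p = 0.0455 in limma). The NR1D1 interval, from -0.76 to -0.01, contained the NR1D2 value, and the log2 ratio of the pair overlapped between groups (difference 0.23, SE 0.23, exact permutation p = 0.4).

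DBP (ENSG00000105516; chr19:49133287-49140636, minus strand), the D-box activator through which the clock reaches many liver genes, had 29, 32 and 24 reads under DMSO and 43, 50 and 30 under fostamatinib. In log2 CPM these were 1.10, 1.09 and 0.72 against 1.66, 1.82 and 1.20, so the lowest fostamatinib sample stood close above the highest DMSO samples. DBP rose by 0.59 on the log2 scale (SE 0.23, adjusted p = 0.0303), or 1.51-fold, the weakest call among the members. The adjusted p was 0.121 without DMSO replicate 3, 0.0909 without fostamatinib replicate 1 and 0.157 without fostamatinib replicate 2 (limma), and 0.0657 without the mean-variance trend. Counting error made up most of the DBP error, with an SE of 0.20 on the log2 scale from read numbers alone.

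The groups did not overlap for 8 of the 10 members, the same 8 that were called, and 54.1% of all genes had groups that did not overlap (26.8% with fostamatinib higher, as in 3 members, and 27.4% with fostamatinib lower, as in 5 members). The exact two-sided permutation test of a single gene can reach no lower than 0.1 with 3 samples against 3, which each of these 8 members had. PER3 and NR1D1 had exact p-values of 0.4 and 0.2.

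**Figure D4:**
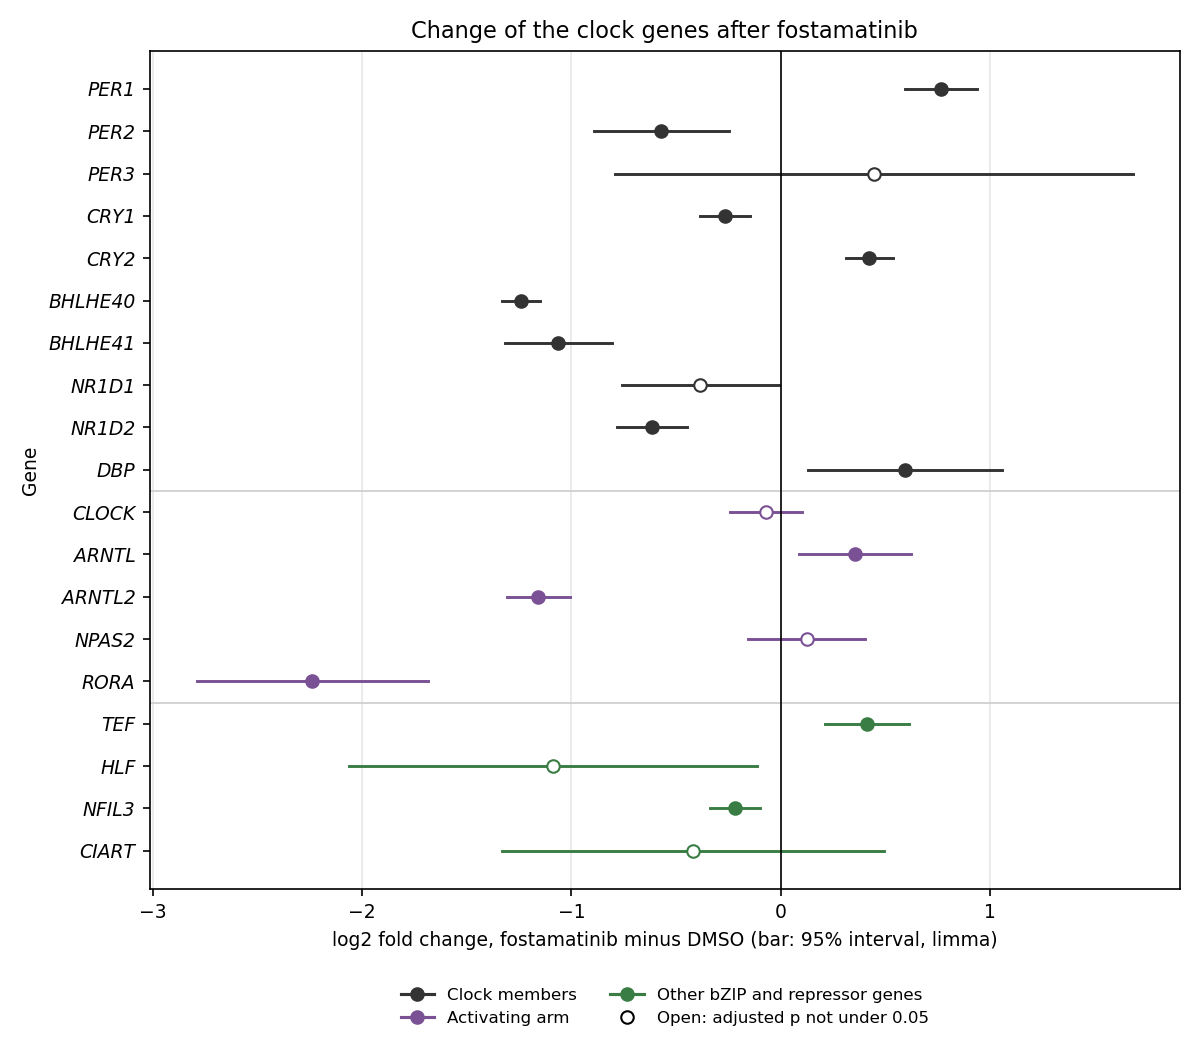
Log2 fold change, fostamatinib minus DMSO, of the 10 clock genes and of the genes of the activating arm and the other bZIP and repressor clock genes, with points for the limma estimate bars for its 95% confidence interval and open points for genes that were not called. BHLHE40 and BHLHE41 lie near -1 and below, PER1 at 0.76 is the highest of the members, and RORA at -2.24 is the lowest gene shown.

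By annotation, exons of 7 members overlap exons of a gene on the opposite strand, and for 4 of them that gene was among those listed. The overlapping genes of PER2, PER3 and CRY1 were not analysed here. The library kit marks strand, but whether reads were counted by strand is not given in the sources used here, so the values of these pairs are uncertain to that extent. NR1D1 shares 473 bases, 18.0% of its exonic bases, with THRA, a thyroid hormone receptor gene. THRA had 291, 301 and 300 reads under DMSO and 413, 425 and 398 under fostamatinib, a rise of 0.56 on the log2 scale (SE 0.073), opposite in sign to the NR1D1 difference. DBP shares 661 bases (10.2%) with SPHK2, a sphingosine kinase gene with 154 to 193 reads under DMSO and 163 to 192 under fostamatinib, which was not called (log2 difference 0.15, 95% confidence interval -0.07 to 0.37). BHLHE41 shares 162 bases (4.20%) with SSPN, which encodes sarcospan and fell by 0.89 (SE 0.16), the same direction as BHLHE41. BHLHE40-AS1, an antisense RNA gene, shares 451 bases with BHLHE40 and had at most 9 reads in any sample, against at least 1024 for BHLHE40.

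Per kilobase of merged exons, the members spanned a wide range of levels. Under DMSO, BHLHE40 stood first with 53.2 CPM per kilobase, followed by CRY1 at 12.0, CRY2 at 9.27, NR1D2 at 5.19, BHLHE41 at 3.14, PER1 at 2.02, NR1D1 at 1.55, PER2 at 0.79, DBP at 0.30 and PER3 at 0.028. No neighbours in this order had overlapping samples. Under fostamatinib, BHLHE40 was still first at 22.5, CRY2 at 12.4 came before CRY1 at 9.99, and PER1 at 3.43 stood beside NR1D2 at 3.37, with overlapping samples. BHLHE41 at 1.49 overlapped with NR1D1 at 1.18, and PER2 at 0.53 with DBP at 0.46, while PER3 stayed last at 0.039. The DBP place depends on the length used, since its merged exons cover 6485 bases and its canonical transcript 2170 bases. With canonical transcript lengths, chosen as an alternative after the data were seen, 8 of the 10 members kept their place under DMSO and 7 under fostamatinib. Under DMSO, the samples of BHLHE41 and PER1 then overlapped, as did those of DBP and PER2.

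**Figure D5:**
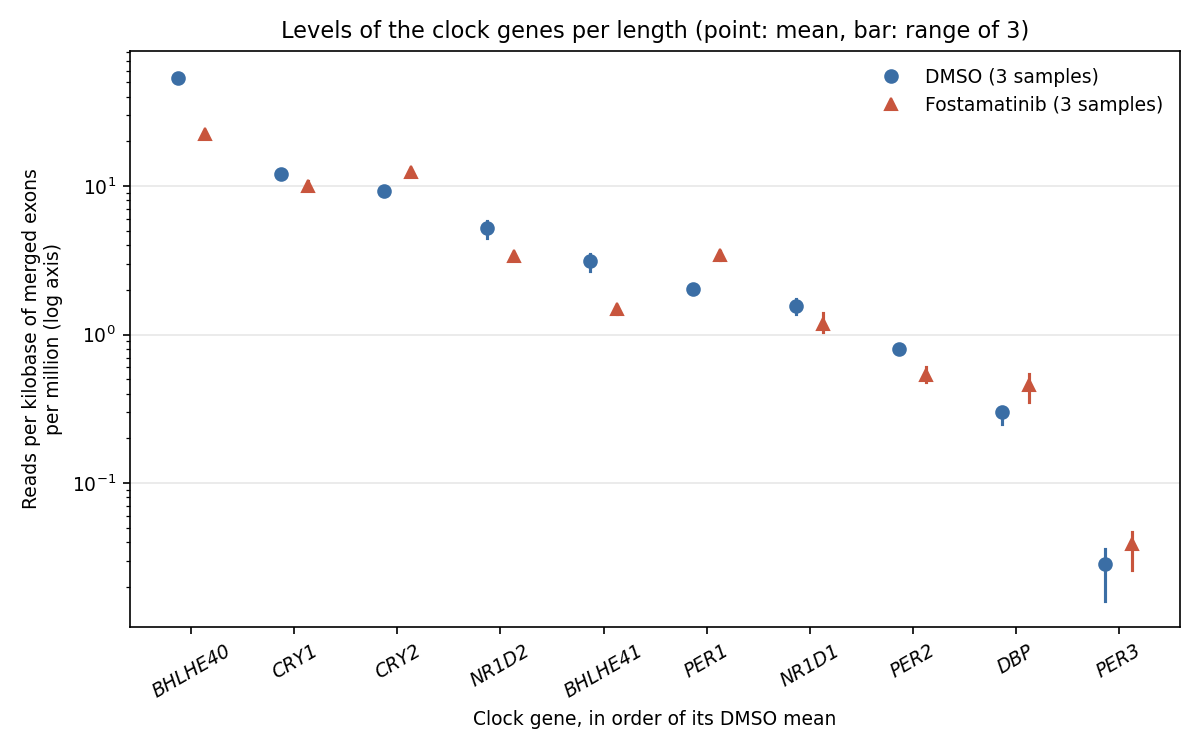
Level of each clock gene per kilobase of merged exons (CPM per kilobase, log axis) under DMSO and fostamatinib, with points for the mean and bars for the range of 3 samples. BHLHE40 is the highest in both groups, at 53.2 and 22.5, and CRY1 and CRY2 change places.

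In the activating arm, ARNTL rose, ARNTL2 and RORA fell, and CLOCK and NPAS2 were not called. CLOCK had 274, 280 and 315 reads under DMSO and 273, 252 and 252 under fostamatinib, and its log2 difference of -0.07 was not called (adjusted p = 0.522). ARNTL, which encodes BMAL1, had 100, 96 and 98 reads under DMSO and 115, 144 and 99 under fostamatinib. ARNTL rose by 0.35 on the log2 scale (SE 0.13, adjusted p = 0.0255), and this call was lost without DMSO replicate 2 or 3, without fostamatinib replicate 2, and without the mean-variance trend (adjusted p = 0.0798). ARNTL2 (BMAL2), the paralog of ARNTL, fell by 1.16 (SE 0.075, adjusted p = 2.44e-15), from 600, 610 and 666 reads to 239, 291 and 261. NPAS2, the CLOCK paralog, was not called (log2 difference 0.12, adjusted p = 0.484). RORA, the receptor that opposes the REV-ERBs at ARNTL, had 49, 51 and 52 reads under DMSO and 7, 13 and 10 under fostamatinib, a fall of 2.24 on the log2 scale (SE 0.27, adjusted p = 1.45e-08). Thus 1 of the 5 genes tested rose and 2 fell, where 47.8% of all genes were called, with a median log2 fold change of -0.07. RORB was not analysed here.

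Among the other bZIP and repressor genes of the clock, 1 of 4 rose and 1 fell, near the share of 47.8% called among all genes. TEF, which activates D-box genes as DBP does, had 149, 159 and 159 reads under DMSO and 203, 203 and 179 under fostamatinib, a rise of 0.41 on the log2 scale (adjusted p = 7.56e-04). NFIL3, which represses at D-boxes, fell by 0.22 (adjusted p = 0.00208). HLF, the remaining activator of this family, had only 12, 9 and 15 reads against 8, 2 and 7, with a log2 difference of -1.09 (adjusted p = 0.0605). It was called in the fit with the replicate number as a block (adjusted p = 0.0435 in limma) and without DMSO replicate 2, fostamatinib replicate 1 or fostamatinib replicate 3 (0.0312 to 0.0473). Without fostamatinib replicate 2, the HLF sample with 2 reads, the log2 difference was -0.50 (adjusted p = 0.377). CIART, a repressor with 4 to 12 reads in a sample, was not called (log2 difference -0.42).

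Of 12 genes listed as regulators of the clock proteins, 3 rose and 2 fell, where 47.8% of all genes were called. The number called was 2 to 7 over the alternatives run. CSNK1D, the casein kinase that phosphorylates PER proteins, rose by 0.24 on the log2 scale (adjusted p = 7.00e-05), and this call held under every alternative run. The deacetylase gene SIRT1 rose by 0.23 (adjusted p = 0.0113), a call lost without the mean-variance trend (0.0833), without DMSO replicate 2 (0.0925) and without fostamatinib replicate 3 (0.103). BTRC and FBXW11, which encode the paired β-TrCP adaptors that mark PER proteins for degradation, differed by 0.16 (adjusted p = 0.0325) and -0.13 (adjusted p = 0.0166). The BTRC call was lost without the trend (0.0764) and without DMSO replicate 1 or 3 or fostamatinib replicate 2 or 3 (0.0515 to 0.123), and the FBXW11 call without the trend (0.0602) and without fostamatinib replicate 2 (0.0835). FBXL21, which had few reads, fell by 1.07 (adjusted p = 0.0138), and its call was lost without DMSO replicate 1 (0.0622). CSNK1E, CIPC, USP2, TIMELESS, GSK3B, NCOR1 and HDAC3 were not called, of which CSNK1E, CIPC and NCOR1 were called under some alternatives. Apart from FBXL21, the changes called in this list were each smaller than that of CRY1, the smallest called among the 10 clock genes.

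Of 11 genes known as clock outputs in liver, 9 were tested, of which 3 were called higher and 4 lower (47.8% of all genes were called), with a median log2 fold change of 0.05. NAMPT, the rate-limiting enzyme of NAD salvage, fell by 1.25 on the log2 scale (adjusted p = 1.9e-22). KLF10, NOCT and the cell cycle kinase gene WEE1 fell by 0.33, 0.29 and 0.21, and the call of NOCT was lost without fostamatinib replicate 3 (adjusted p = 0.0594). PPARA, the fatty acid-sensing nuclear receptor, rose by 0.89 (adjusted p = 8.05e-08), and POR, the electron donor of cytochrome P450 enzymes, by 0.30. SLC2A2, a glucose transporter gene, was called higher at 2, 7 and 3 reads under DMSO and 8, 13 and 18 under fostamatinib, but it passed the filter on low reads only in the fostamatinib group, where it is high. With the filter required in both groups it was not tested, and 6 genes of this list were called. ALAS1 and HMOX1 were not called. CYP7A1 and CYP2A6 were not analysed here.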

How the data were processed

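Poly(A) RNA of 3 DMSO and 3 fostamatinib samples was sequenced with a directional kit. The authors aligned the reads by HISAT (hg19), used featureCounts with a GENCODE annotation for gene counts, filtered low genes (each listed gene has at least 5 reads in at least 2 samples of a group) and normalized by TMM. Tool versions are not given in the sources used here. The deposited values are log2 CPM with 0.5 added to each count, from which whole reads were recovered for 100% of values (tolerance 0.05). Of 16311 rows, 6 repeated a gene and were dropped. All genes were fitted with limma 3.58.1 (R 4.3.3; mean-variance trend, treatment as the only term) on the log2 values, with Benjamini-Hochberg adjustment and calls at an adjusted p-value under 0.05. Single values and paralog ratios were compared by exact two-sided permutation tests. Gene positions, exon lengths and exon overlaps came from GENCODE 44 on GRCh37, in which 98.7% of gene identifiers were found. The authors name an earlier GENCODE release for counting, so the counted exons may differ from these. The script was tested on simulated data, in which far fewer genes changed than were called here. The members and gene lists were chosen with earlier results of these data known. Some genes of the planned lists are not reported here and were left out of the list counts. Named were all 10 members, listed genes that overlap their exons on the opposite strand, and genes of the lists, called or not. Alternatives were voom weights, no trend, RLE and library-size scaling, stricter filters, a pseudocount of 2, a replicate block, and leaving out each sample. The other scalings shifted the log2 fold changes of all genes by at most 0.011, and no value column was left unmapped (0). Samples with the same replicate number did not deviate together, so numbers were not used as pairs.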

Additional observations from a re-analysis of the deposited data

How the results depend on the processing

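Of the 10 clock genes, 8 stayed called under voom weights, both scalings, both stricter filters where they passed, a pseudocount of 2 and the replicate block, and each member kept its direction under every alternative run. Without the mean-variance trend 7 members were called, at larger adjusted p-values in limma than with it, from 0.000179 (BHLHE40) to 0.0294 (CRY1). DBP was the exception to the stability of calls: without the mean-variance trend its log2 difference was 0.59 with an adjusted p of 0.0657 (limma), and leaving out 1 sample at a time gave 0.46 to 0.77 (adjusted p 0.0108 to 0.157). NR1D1 gave -0.50 to -0.29 in those fits (adjusted p 0.0455 to 0.269), and 7 to 8 members were called. The count for the regulators of clock proteins went from 5 to 2 without the trend, and was 6 with voom weights, RLE scaling, a pseudocount of 2 or the filter passed in both groups, and 7 with library-size scaling or the replicate block; the cause was not tested. Values that changed sign were of genes never called: leaving out 1 sample gave -0.011 to 0.059 for DUSP1, -0.25 to 0.024 for EGR1 and -0.044 to 0.44 for FOSB. Samples with the same replicate number correlated at -0.0213 to 0.0371 in their deviations from the group means, and 2 of 6 samples correlated best with their own number. A block for replicate number gave 7977 called genes against 7794, and all 8 called members stayed called. Depth limits PER3, at 2 to 5 reads in a sample.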

Other observations

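The lists of glucocorticoid, cAMP and serum-response targets, which cover signals that PER1 and PER2 are known to respond to, were described in the same way. PER1 rose and PER2 fell, and a link of either to these lists was not tested. Of 10 genes listed as glucocorticoid receptor targets 9 were tested, and 3 rose, PER1 itself among them, and 3 fell. Their median log2 fold change was 0.03. TSC22D3, which encodes the glucocorticoid-induced leucine zipper, rose by 1.23 and the receptor gene NR3C1 by 0.53, while FKBP5, SGK1 and ERRFI1 fell by 1.01, 1.70 and 0.86. DUSP1, KLF9 and TAT were not called, though TAT was under some alternatives. Of 8 cAMP and CREB targets 7 were tested, and 5 rose and 1 fell, with a median of 0.92. The orphan receptor genes NR4A1, NR4A2 and NR4A3 rose by 0.55, 2.33 and 1.83, SIK1, a kinase gene induced by cAMP, by 1.29, and PPARGC1A, a coactivator of fasting metabolism in liver, by 0.92. FOS fell by 1.44, and CREM was not called (log2 difference -0.11). Among 5 immediate early genes of the serum response, none rose, and JUNB and SRF fell by 0.68 and 0.34. These log2 fold changes come from the same limma fit, in which 47.8% of all genes were called.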
